A study of Mus musculus with 8 samples.

Results

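Nodal, Lefty and activin pathway genes were followed in mouse embryonic stem cells (ESCs) of line N33, derived from C57BL/6J mice (C57BL/6 in the labels), grown in 4 conditions with 2 replicates each. The 10 genes, chosen by symbol among 20278 in the files, were *Nodal*, *Lefty1*, *Lefty2*, *Tdgf1*, *Smad7*, *Skil*, *Fst*, *Inhba*, *Inhbb* and *Acvr2b*. ESCs without feeders (−F) grew on gelatin in medium with 20% fetal bovine serum. ESCs with feeders (F) grew in the same serum medium on mouse embryonic fibroblasts whose division had been stopped with mitomycin C, and F2i was F with 2i, a pair of inhibitors of Gsk3β and Mek. ESCs in NB2i grew without serum or feeders in N2B27, a chemically defined medium, on poly-L-ornithine and laminin, with CHIR99021 at 3 µM and PD0325901 at 1 µM. The labels give these doses for NB2i and none for F2i. LIF at 1000 U/ml was present in every condition. According to the sample labels, feeders were separated from the ESCs in 2 rounds by adherence, a step that the RNA-seq methods do not mention. All 8 samples are of 1 line, so the results describe N33 and not ESC lines at large. The design text calls the replicates biological. The p-values rest on the spread between replicates in all 4 conditions, which the test also borrows from the other genes.

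Nodal and the activins are secreted ligands of the TGFβ family. They bind type I and type II activin receptors, and Nodal also needs a coreceptor such as Cripto, the product of *Tdgf1*. The receptors phosphorylate Smad2 and Smad3, which enter the nucleus with Smad4 and act with partners such as Foxh1. *Lefty1*, *Lefty2*, *Smad7* and *Skil* are well-known target genes that restrain the same signal, so that the pathway holds several negative feedback loops. In mouse ESCs the pathway is active through ligands that the cells make themselves and through those of serum and feeders. RNA levels alone do not measure its activity.

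Each sample was read at similar depth, from 20129641 to 20664488 expected counts, and all 10 genes had enough counts to be tested. Expected counts are the estimated numbers of reads per gene, and FPKM divides them by transcript length and depth, so that levels can be compared between genes. The 8 ESC markers, *Pou5f1* and *Nanog* among them, summed to 3491 to 4238 FPKM per sample, and none was at 0. Single markers differed between conditions. In NB2i against −F all 8 passed edgeR's test, 6 higher and 2 lower, where 72.4% of all genes tested passed. *Pou5f1* had means of 588 in −F, 589 in F, 611 in F2i and 750 FPKM in NB2i, and *Nanog* 204, 270, 473 and 299. Of those with the widest changes, named after their values were seen, *Utf1* had means of 478, 380, 81.6 and 47.1 FPKM and *Klf4* 54.5, 200, 245 and 145. The 15 fibroblast markers summed to 19.5 and 19.9 FPKM in −F, 305 and 320 in F, 750 and 755 in F2i, and 6.06 and 6.58 in NB2i. No fibroblast marker was at 0 in F or F2i, 1 or 2 were in −F, and 4 or 5 in NB2i. *Col1a1*, a collagen gene of fibroblasts, had means of 2.53, 67.8, 244 and 0.53 FPKM in the same order, and *Col1a2* 0.78, 46.1, 124 and 0.065. The 10 primitive endoderm markers summed to 75.1 and 77.5 FPKM in −F, 93.4 and 96.2 in F, 61.8 and 65.4 in F2i, and 46.3 and 48.1 in NB2i. *Gata4* had means of 1.71, 3.24, 1.22 and 1.77 FPKM and *Gata6* 0.60, 1.91, 0.66 and 0.145. *Lama1* of the same list went against the sum in NB2i, with means of 7.88, 11.6, 6.88 and 20.8 FPKM. *Sox7* was also higher in NB2i than in −F, with means of 0.32, 1.025, 0.475 and 0.635. *Lamb1* and *Col4a1*, the highest of the list in −F at means of 47.4 and 15.6, had 22.6 and 0.655 in NB2i. These genes were also named after their values were seen. By edgeR's test 2 of the 10 were higher and 6 lower in NB2i than in F2i, where 64.1% of all genes tested passed. Against −F 2 were higher and 5 lower, where 72.4% passed. The 6 trophoblast markers summed to 20.1 and 20.5 FPKM in −F, 12.7 and 13.3 in F, 5.92 and 6.20 in F2i, and 21.1 and 22.6 in NB2i. Most of that sum in NB2i was *Krt7*, at 18.4 and 20.01 FPKM. *Tfap2a* was also highest in NB2i, with means of 0.395, 0.345, 0.785 and 2.29 FPKM. *Hand1* had means of 5.62, 3.13, 0.165 and 0.055 FPKM and *Gata3* 1.03, 0.95, 1.71 and 0.14. Of the 5 trophoblast markers tested, 2 were higher and 2 lower in NB2i than in −F, where 72.4% of all genes tested passed. These genes were also chosen with their values seen. In bulk RNA, a smaller share of cells of one type and less RNA per cell of that type cannot be told apart.

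The 10 genes spanned a wide range of levels. *Tdgf1* was the highest in every condition, between 416 and 670 FPKM in the 8 samples. At the other end stood *Inhba* in −F and NB2i, *Fst* in F and *Inhbb* in F2i. The order between the extremes changed with the culture condition. *Lefty1* was the second highest in −F and F, with a mean of 67.0 and 90.3 FPKM, but lay below *Nodal*, *Lefty2* and *Smad7* in both 2i conditions. *Lefty2* was the second highest there. *Fst* lay below *Lefty1*, *Skil* and *Acvr2b* in −F and above all of them in NB2i. The plot of levels by sample shows these shifts gene by gene.

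**Figure D1:**
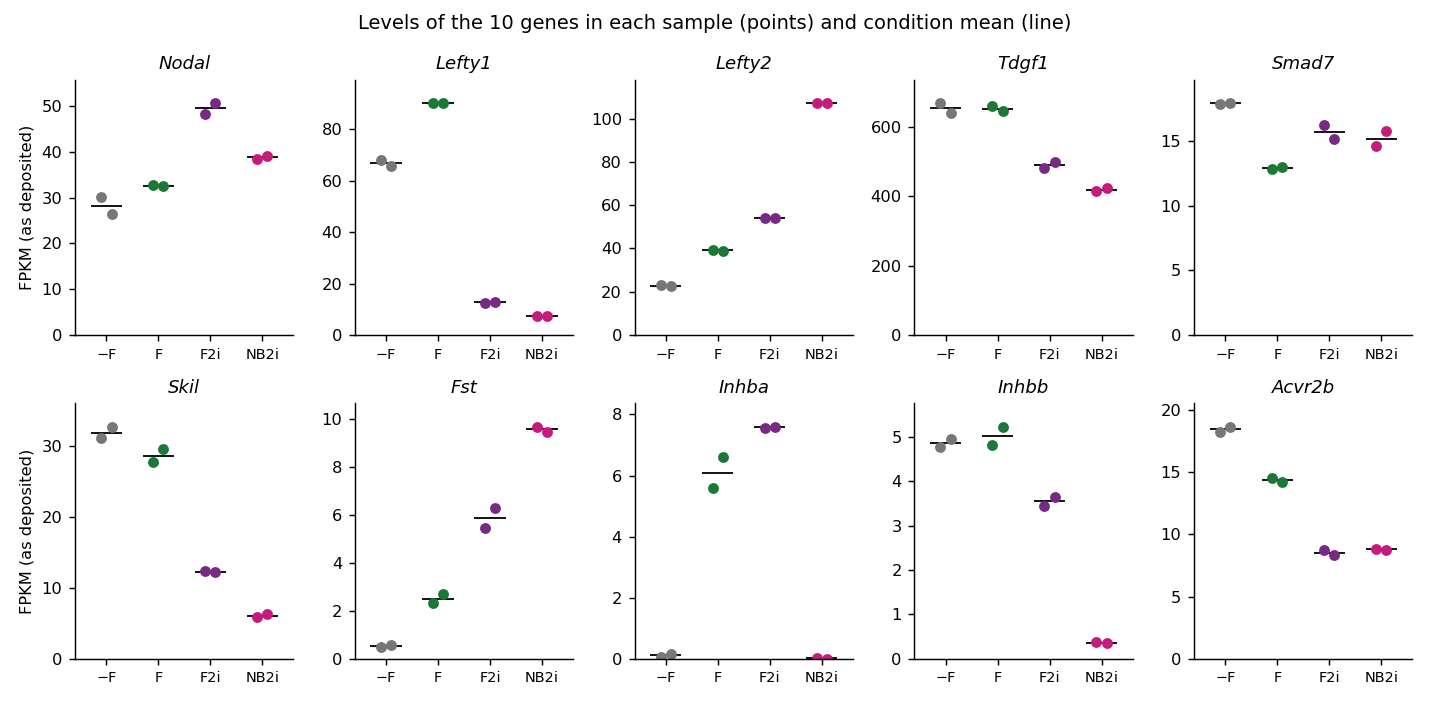
Each panel plots one gene, with FPKM from 0 on a linear vertical axis and the 4 conditions along the horizontal axis. Points are the 2 samples of a condition and the line is their mean. *Lefty1* falls from 90.3 FPKM in F to 12.7 in F2i, *Lefty2* and *Fst* rise at each step to NB2i, and *Inhba* stands clear of 0 in F and F2i alone.

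*Lefty1* and *Lefty2*, which encode secreted inhibitors that block Nodal and its coreceptor, moved in opposite directions under 2i. *Lefty1* (Entrez ID 13590) lies on mm10 chromosome 1 from 180935022 to 180938400 and *Lefty2* (Entrez ID 320202) from 180893108 to 180899103, both on the plus strand. They are 35918 bases apart with 1 annotated gene between them. Their coding sequences are 1104 bases each, align without gaps and differ at 90 positions, an identity of 91.85%. RSEM, the program behind the expected counts, has to divide reads that match both genes. Of the 50-base stretches of the *Lefty1* transcript, the length of a read, 17.9% occur in *Lefty2*, and 11.6% of those of *Lefty2* occur in *Lefty1*. The other stretches tell the genes apart. The coding window below, positions 34 to 93 counted from the A of the start codon, is the 60-base window richest in differences. It is shown because reads from it can be assigned to one gene, and the 18 bases that differ are in capitals.
Lefty1, chr1:180935143-180935202, plus strand: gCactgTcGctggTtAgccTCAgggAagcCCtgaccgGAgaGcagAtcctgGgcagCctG
Lefty2, chr1:180893217-180893276, plus strand: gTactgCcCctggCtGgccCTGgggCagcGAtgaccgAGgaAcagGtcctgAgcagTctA

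*Lefty1* had 68.2 and 65.7 FPKM in −F, 90.2 and 90.3 in F, 12.6 and 12.9 in F2i, and 7.36 and 7.27 in NB2i. The serum conditions without 2i were high, those with 2i were low, and no pair of conditions overlapped. *Lefty1* rose with feeders by 0.45 on the log2 scale (SE 0.043, adjusted p = 2.9e-08, quasi-likelihood F test of edgeR, adjusted over all genes tested by Benjamini-Hochberg, as for every adjusted p here). It fell 6.91-fold when 2i was added on feeders (log2 fold change −2.79, SE 0.054, adjusted p = 4.0e-20). A further fall of 0.79 (SE 0.077, adjusted p = 1.1e-08) separated NB2i from F2i. Between the feeder-free conditions, NB2i was 8.72-fold lower than −F (−3.12, SE 0.061, adjusted p = 6.3e-21).

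*Lefty2* rose with feeders as *Lefty1* did and went the other way with 2i, with 22.9 and 22.5 FPKM in −F, 39.4 and 38.8 in F, 53.9 and 54.2 in F2i, and 107.2 in both NB2i samples. Each condition stood above the one before it with no overlap. The log2 fold changes were 0.81 for F against −F (SE 0.047, adjusted p = 7.7e-12), 0.50 for F2i against F (SE 0.043, adjusted p = 1.8e-09) and 0.99 for NB2i against F2i (SE 0.040, adjusted p = 4.3e-15). NB2i was 4.94-fold above −F (2.31, SE 0.044, adjusted p = 5.2e-21). Up to rounding the last value is the sum of the other 3, here and for every gene, since the comparisons share samples.

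Because reads of the pair are divided by estimate, their counts were also summed and tested as 1 gene. The sums were 3422 and 3316 counts in −F, 4947 and 4989 in F, 3121 and 3184 in F2i, and 5789 and 5743 in NB2i. The total lay between 3121 and 5789 counts in the 8 samples. It rose by 0.59 (SE 0.041, adjusted p = 1.5e-10) with feeders, fell by 0.61 (SE 0.041, adjusted p = 3.5e-11) with 2i and rose by 0.85 (SE 0.041, adjusted p = 6.5e-14) from F2i to NB2i. NB2i was above −F by 0.83 (SE 0.040, adjusted p = 4.2e-14). Summed per length as FPKM, the pair had 91.1 and 88.2 in −F, 130 and 129 in F, 66.5 and 67.1 in F2i, and 115 and 114 in NB2i, and limma on log2 of these sums gave a smaller difference of 0.35 for NB2i against −F and a larger fall, up to −0.95, for F2i against F. The share of *Lefty1* in the pair's counts was 65.8% and 65.3% in −F, 59.618% and 59.996% in F, 13.1% and 13.3% in F2i, and 4.24% and 4.19% in NB2i.

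**Figure D2:**
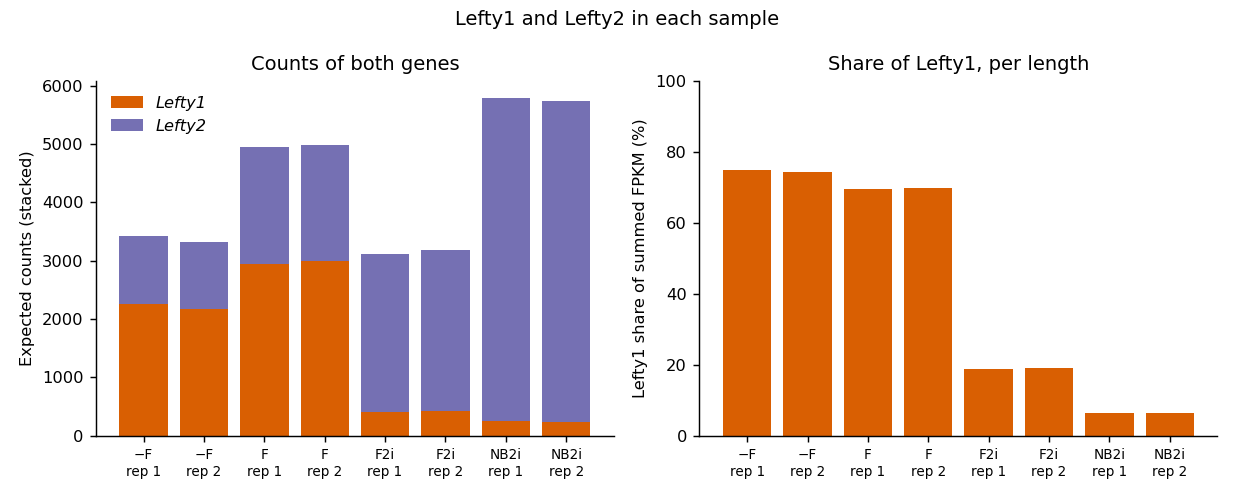
The left panel stacks the expected counts of *Lefty1* (orange) and *Lefty2* (violet) for each of the 8 samples, and the right panel gives the share of *Lefty1* in their summed FPKM, in percent. The total stays between 3121 and 5789 counts while the *Lefty1* share per length falls from 74.9% in the first −F sample to 6.35% in the second NB2i sample.

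Among the ligands, *Nodal* changed little and the activin subunit genes changed much. *Nodal* (Entrez ID 18119; chromosome 10, 61417972 to 61425338, plus strand) had 30.1 and 26.4 FPKM in −F, 32.7 and 32.5 in F, 48.2 and 50.7 in F2i, and 38.5 and 39.2 in NB2i. The 4 conditions did not overlap and their means lay within 1.75-fold. *Nodal* rose by 0.64 with 2i on feeders (SE 0.054, adjusted p = 1.5e-09) and was 0.34 lower in NB2i than in F2i (−0.34, SE 0.053, adjusted p = 8.3e-06). NB2i was above −F by 0.53 (SE 0.056, adjusted p = 2.4e-08). The rise with feeders was 0.23 (SE 0.057, adjusted p = 0.0027) and did not pass the test without replicate 2 of −F (0.14, adjusted p = 0.062).

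*Inhba* (Entrez ID 16323; chromosome 13, 16011851 to 16031621, plus strand) encodes the βA subunit, 2 copies of which form activin A. It was near 0 in both feeder-free conditions, with 0.06 and 0.16 FPKM from 2 and 5 counts in −F, and 1 count in the first NB2i sample and none in the second. On feeders it had 5.59 and 6.60 FPKM in F, from 172 and 206 counts, and 7.56 and 7.60 in F2i, from 231 and 235. The pooled count ratio of F to −F was 54.1, with a 95% exact interval of 26.0 to 135.5, and that of F2i to NB2i was 474, with an interval of 84.6 to 1.88e+04. These intervals cover counting error only, and reads without molecular identifiers are not independent molecules. By edgeR *Inhba* rose by 5.73 with feeders (SE 0.28, adjusted p = 3.5e-13), from 5.23 to 6.50 with single samples left out. The fitted change from F2i to NB2i passed the test as well. Its size rests on 1 count in NB2i and on the small count that edgeR adds, and is not given.

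The feeder conditions were also those with fibroblast RNA. With feeders 14 of 15 fibroblast markers rose and none fell, and from F to F2i 11 rose and none fell, as their summed level went from 305 to 320 FPKM to 750 to 755. In NB2i against F2i all 15 fell, and in NB2i against −F 2 rose and 8 fell. Of all genes tested 40.2%, 54.8%, 64.1% and 72.4% passed in these comparisons. The part of fibroblast RNA in the level of *Inhba* was not tested. Between F and F2i *Inhba* itself differed by 0.35 (SE 0.12, adjusted p = 0.018). That call was lost without replicate 1 of F (0.23), without replicate 1 of F2i (0.36) and without replicate 2 of F2i (0.35). It was also lost with DESeq2 (adjusted p = 0.18) and with limma on log2(FPKM + 0.1) (adjusted p = 0.32). Between −F and NB2i the 7 and 1 counts gave a ratio of 7.05 with an interval of 0.906 to 318. The edgeR call for that pair (adjusted p = 0.044) was lost without replicate 2 of −F, replicate 2 of NB2i or replicate 1 of F2i. It was also lost with DESeq2 (adjusted p = 0.11), in edgeR without a count filter (0.075) and with limma on log2(FPKM + 1) (0.22). With the 2 groups alone *Inhba* had too few counts to be tested.

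*Inhbb* (Entrez ID 16324; chromosome 1, 119415465 to 119422248, minus strand) encodes the βB subunit of activin B, and its level did not follow that of *Inhba*. It had 4.77 and 4.95 FPKM in −F, 4.81 and 5.23 in F, 3.44 and 3.65 in F2i, and 0.37 and 0.36 in NB2i. The −F and F samples overlapped, and the test gave a difference of 0.07 (SE 0.076, adjusted p = 0.51). *Inhbb* fell by 0.46 with 2i on feeders (SE 0.080, adjusted p = 4.5e-05) and was 9.57-fold lower in NB2i than in F2i (−3.26, SE 0.13, adjusted p = 6.3e-15). Against −F, the other condition without feeders, NB2i was 12.6-fold lower (−3.65, SE 0.13, adjusted p = 1.2e-16). The summed FPKM of both subunit genes was 4.83 and 5.11 in −F, between 10.4 and 11.8 in the 4 feeder-grown samples, and 0.40 and 0.36 in NB2i.

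**Figure D3:**
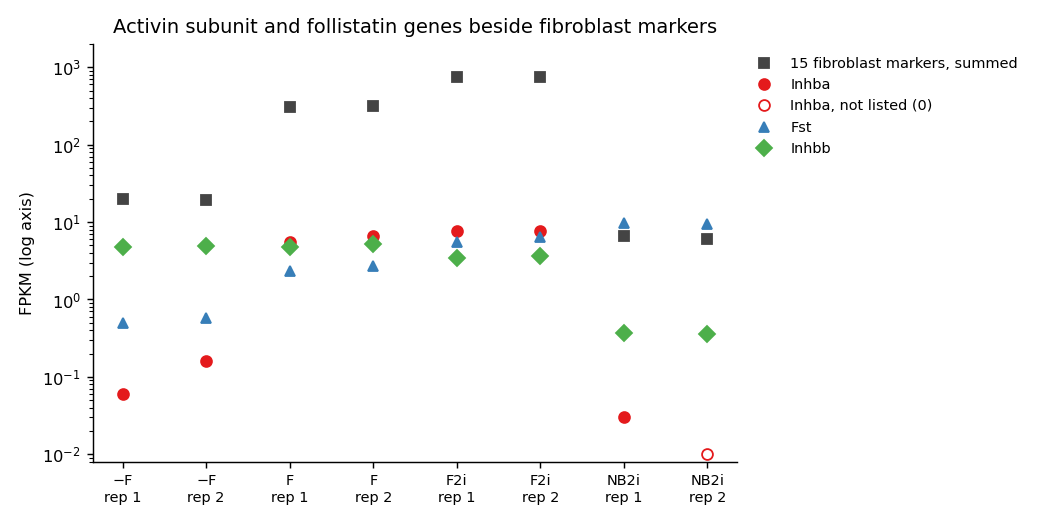
FPKM on a log axis of *Inhba* (circles), *Fst* (triangles), *Inhbb* (diamonds) and the sum of 15 fibroblast markers (squares) for each of the 8 samples, with an open circle at the lower edge where *Inhba* was not listed. *Inhba* and the fibroblast sum are high in the same 4 samples, whereas *Fst* is highest, at 9.70 and 9.49 FPKM, in the NB2i samples where the fibroblast sum is lowest.

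Both receptor genes among the 10 fell when 2i was added on feeders. *Tdgf1* (Entrez ID 21667; chromosome 9, 110939603 to 110946158, minus strand), the gene of the Nodal coreceptor Cripto, had 670 and 641 FPKM in −F, 660 and 647 in F, 483 and 501 in F2i, and 416 and 423 in NB2i. The −F and F samples overlapped (0.02, SE 0.041, adjusted p = 0.76). *Tdgf1* fell by 0.37 with 2i on feeders (SE 0.041, adjusted p = 1.0e-07), and NB2i was lower than F2i (−0.22, SE 0.041, adjusted p = 7.3e-05) and than −F (−0.58, SE 0.041, adjusted p = 3.5e-11). Of its 50-base stretches 12.5% also occur in the pseudogene *Tdgf1-ps1*, so the division of those reads is uncertain. *Tdgf1* stood 22.3 and 24.3 times above *Nodal* per length in −F, 20.2 and 19.9 times in F, 10.006 and 9.884 times in F2i, and 10.8 times in both NB2i samples.

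*Acvr2b* (Entrez ID 11481; chromosome 9, 119402118 to 119434995, plus strand), a type II receptor that binds activin and Nodal, had 18.2 and 18.7 FPKM in −F, 14.5 and 14.2 in F, 8.76 and 8.31 in F2i, and 8.85 and 8.73 in NB2i. Both 2i conditions were low and overlapped (0.05, SE 0.046, adjusted p = 0.38). The fall was 0.34 with feeders (−0.34, SE 0.042, adjusted p = 1.5e-06), 0.71 with 2i on feeders (−0.71, SE 0.045, adjusted p = 1.1e-11) and 1.00 for NB2i against −F (−1.002, SE 0.044, adjusted p = 6.9e-15).

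*Fst* encodes follistatin, a secreted protein that binds activins and keeps them from their receptors. The gene (Entrez ID 14313; chromosome 13, 114452290 to 114458951, minus strand) had 0.49 and 0.57 FPKM in −F, 2.33 and 2.69 in F, 5.47 and 6.32 in F2i, and 9.70 and 9.49 in NB2i. In counts these were 26 and 31, 129 and 152, 302 and 350, and 540 and 529. Every step was upward without overlap, the same order as for *Lefty2*. *Fst* was 5.00-fold higher with feeders (2.32, SE 0.18, adjusted p = 7.3e-10), rose by 1.26 with 2i (SE 0.11, adjusted p = 1.4e-09) and by 0.69 from F2i to NB2i (SE 0.084, adjusted p = 3.0e-07). Against −F the rise in NB2i was 4.28 (SE 0.13, adjusted p = 2.1e-17). Fibroblast markers rose with *Fst* in the first and second of these steps, and their part there was not tested. In NB2i the markers summed to 6.06 and 6.58 FPKM, below the 19.5 and 19.9 of −F, and *Fst* was highest. An exon of *Fst* overlaps *Gm47040* on the opposite strand along 2.37% of its 50-base stretches, and reads from the overlap cannot be told apart without strand, which the library protocol does not mention.

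The intracellular inhibitors split. *Smad7* (Entrez ID 17131; chromosome 18), an inhibitory Smad that acts at the receptors, had 17.9 FPKM in both −F samples, 12.8 and 13.0 in F, 16.2 and 15.2 in F2i, and 14.6 and 15.8 in NB2i. F was the lowest condition, and F2i and NB2i overlapped (−0.04, SE 0.052, adjusted p = 0.49). *Smad7* fell by 0.45 with feeders (SE 0.053, adjusted p = 6.7e-07) and rose by 0.32 when 2i was added (SE 0.053, adjusted p = 3.0e-05). NB2i lay below −F by a small amount (−0.17, SE 0.052, adjusted p = 0.0057), which did not pass without replicate 1 of NB2i (−0.11, adjusted p = 0.14).

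*Skil* encodes SnoN, a corepressor that binds Smad2 and Smad3 in the nucleus. The gene (Entrez ID 20482; chromosome 3, 31095058 to 31122577, plus strand) had 31.1 and 32.7 FPKM in −F, 27.7 and 29.6 in F, 12.4 and 12.2 in F2i, and 5.85 and 6.30 in NB2i. It fell by 1.18 with 2i on feeders (SE 0.049, adjusted p = 1.1e-14) and by 1.01 from F2i to NB2i (SE 0.057, adjusted p = 1.2e-12). NB2i was 4.99-fold below −F (−2.32, SE 0.053, adjusted p = 1.1e-19). The small fall with feeders (−0.13, SE 0.046, adjusted p = 0.030) did not pass without replicate 2 of −F (−0.08) or without replicate 1 of F (−0.08). It did not pass with DESeq2 (adjusted p = 0.059), in edgeR with the 2 groups alone (0.079) or without a count filter (0.067). With limma on log2 FPKM it did not pass at a pseudocount of 1 (0.058) or 0.1 (0.067).

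For the first comparison, which asks what feeders add in serum, 5 of the 10 genes were higher in F than in −F and 3 lower at an adjusted p under 0.05, where of the 15287 genes tested 21.7% were higher and 18.5% lower, 40.2% in all. *Fst* and *Inhba* were higher by at least 2-fold and none was lower by as much, where 5.59% and 1.65% of all genes tested were, 7.24% together. The second comparison asks what 2i does on feeders. All 10 genes passed, 5 higher and 5 lower, where 27.3% of all genes tested were higher and 27.4% lower, 54.8% in all. *Fst* was higher and *Lefty1* and *Skil* were lower by at least 2-fold, where 6.44% of all genes were higher and 7% lower by as much, 13.4% together.

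NB2i and F2i differ in feeders, serum, base medium and growth surface together, and the inhibitor doses of F2i are not given. Effects of these cannot be told apart. In NB2i against F2i 2 genes, *Lefty2* and *Fst*, were higher and 6 lower, where 33.3% of all genes tested were higher and 30.8% lower, 64.1% in all. *Inhba*, *Inhbb* and *Skil* were lower by at least 2-fold and none was higher by as much, where 13.3% and 6.01% of all genes were, 19.3% together. *Skil* stood near the limit, from −1.05 to −0.967 on the log2 scale with single samples left out. The feeder-free conditions, NB2i and −F, differ in 2i, serum, base medium and growth surface, which cannot be told apart either. In NB2i against −F 3 of the 10 genes were higher and 7 lower, where 36.9% of all genes tested were higher and 35.4% lower, 72.4% in all. At least 2-fold were *Lefty2* and *Fst* upward and *Lefty1*, *Skil*, *Inhba*, *Inhbb* and *Acvr2b* downward. Of all genes tested 11.1% were higher and 16.1% lower by as much, 27.2% together. *Inhba* rests on 7 counts in −F and 1 in NB2i. *Acvr2b* stood at the limit, from −1.025 to −0.979 on the log2 scale with single samples left out. The median log2 fold change of the 10 genes was 0.15, −0.03, −0.28 and −0.79 in the 4 comparisons in this order, and that of all genes tested lay between −0.003 and 0.018. With backgrounds this high, passing the test says little about a gene, and the sizes above carry the description. Medians and counts over so few genes, chosen for their pathway, describe them only.

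**Figure D4:**
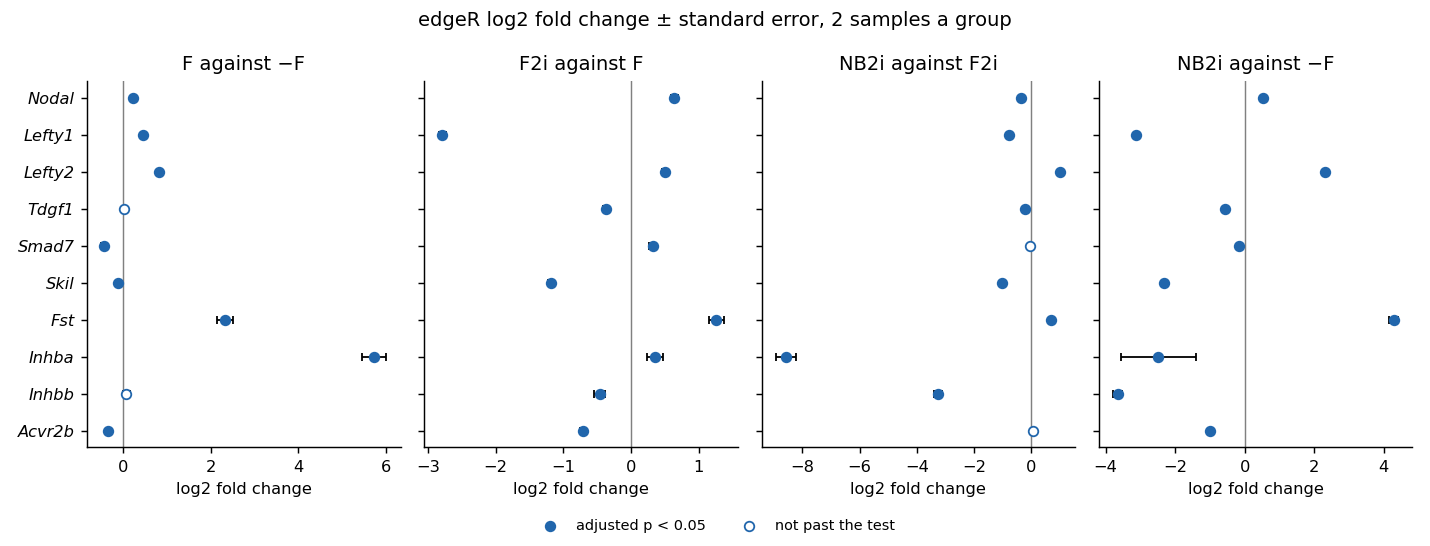
Log2 fold change of each of the 10 genes in the 4 comparisons, from edgeR, with horizontal bars of ± 1 standard error (2 samples a group) and filled points for an adjusted p under 0.05. The standard error is the absolute change divided by the square root of its F statistic, and can be too small for genes of few counts. The horizontal scale differs between panels, and *Lefty1* and *Lefty2* lie on opposite sides of 0 in every panel but F against −F. The *Inhba* values that involve the feeder-free conditions rest on 7 counts in −F and 1 in NB2i.

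The rest of the pathway was read from 4 lists with 38 other genes, of which 34 could be tested. With feeders 11 were higher and 7 lower, with 2i on feeders 10 and 11, in NB2i against F2i 11 and 18, and in NB2i against −F 10 and 16. Of all genes tested 40.2%, 54.8%, 64.1% and 72.4% passed in these comparisons, so that many calls are usual here. The median log2 fold changes of the 34 were 0.09, 0.03, −0.28 and −0.11.

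Of the other ligands, 9 of 10 were tested. *Tgfb3*, which encodes TGFβ3, rose by 3.10 with feeders (SE 0.17, adjusted p = 4.5e-12), from means of 0.355 to 3.03 FPKM, and was lower by 6.34 in NB2i than in F2i (−6.34, SE 0.24, adjusted p = 1.6e-15). *Tgfb2* rose by 1.68 with 2i on feeders (adjusted p = 5.9e-10) and had −2.75 in NB2i against F2i (adjusted p = 1.4e-12). The fibroblast markers moved in the same directions in these comparisons, and their part was not tested. *Gdf1*, a partner of Nodal in dimers, fell by 0.70 with feeders (adjusted p = 8.7e-05) and by 1.24 with 2i on feeders (adjusted p = 9.6e-07), and was higher in NB2i than in F2i (1.12, adjusted p = 3.5e-06) but lower than in −F (−0.82, adjusted p = 4.8e-06). *Gdf3*, a Nodal-related ligand of pluripotent cells, had means of 41.8, 44.2, 53.8 and 61.5 FPKM, and passed in F2i against F (0.32), NB2i against F2i (0.20) and NB2i against −F (0.63). *Inha*, the inhibin α subunit gene, fell by 0.86 with 2i on feeders (adjusted p = 0.02) and had −2.34 in NB2i against −F (adjusted p = 4.2e-05). *Inhbe*, the gene of the activin βE subunit, was seen above 1 FPKM in NB2i alone, at 2.79 and 3.56, and was 6.48 higher there than in −F (SE 0.41, adjusted p = 3.8e-12) and 4.62 higher than in F2i (SE 0.32, adjusted p = 4.8e-11), in contrast to *Inhbb* and *Inhba*.

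Of 7 other receptor genes 5 were tested. *Acvr1b*, the main type I receptor for activin and Nodal, had means of 12.1, 10.995, 11.2 and 18.1 FPKM and was higher in NB2i than in F2i (0.70, SE 0.06, adjusted p = 1.3e-09) and −F (0.64, adjusted p = 2.2e-09), while *Acvr2b* was lower than in −F. *Acvr2a*, the other type II receptor gene, had means of 3.03, 3.25, 3.38 and 2.79 FPKM and passed in NB2i against F2i alone (−0.27, adjusted p = 0.0071). The TGFβ receptor genes *Tgfbr2* and *Tgfbr3* rose with feeders (1.16 and 1.31) and with 2i on feeders (1.44 and 0.80) and were lower in NB2i than in F2i (−2.51 and −1.17), as the fibroblast markers were. *Tgfbr3* was also higher in NB2i than in −F (0.94, adjusted p = 9.7e-05).

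Of the 12 genes of Smads and their nuclear or cytoplasmic partners none passed 2-fold in any comparison. Of all genes tested 7.24%, 13.4%, 19.3% and 27.2% did, and a list of 12 is too short to set against these shares. *Smad4* had means of 22.4, 22.6, 22.2 and 23.3 FPKM and passed in NB2i against −F alone (0.12, adjusted p = 0.025), and *Smad2* had 8.96, 9.20, 8.03 and 8.13 and passed in F2i against F alone (−0.16, adjusted p = 0.016). *Smad3* was lower with feeders (−0.25, adjusted p = 0.008) and higher in NB2i than in F2i (0.72, adjusted p = 1.3e-08) and −F (0.32, adjusted p = 0.00026). *Foxh1*, the DNA-binding partner of Smad2, had a mean of 31.7 FPKM in −F, 25.6 and 24.4 FPKM in the F samples, and means of 17.2 in F2i and 32.99 in NB2i. It fell by 0.32 with feeders and by 0.50 with 2i on feeders and was 0.95 higher in NB2i than in F2i (adjusted p = 1.2e-10). *Ski*, the corepressor closest to *Skil*, also fell by 0.58 with 2i on feeders (adjusted p = 4.6e-10), with −0.56 in NB2i against F2i and −0.93 against −F. Smaller falls were those of *Zfyve9* with feeders (−0.40), *Tgif2* with 2i on feeders (−0.65), and *Smurf2* (−0.61) and *Trim33* (−0.46) in NB2i against −F, whereas *Smurf1* was 0.31 higher with feeders.

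Of 9 other extracellular regulators 8 were tested. *Fstl1*, a secreted follistatin-like gene abundant in fibroblasts, had means of 25.1, 51.3, 65.8 and 17.0 FPKM and followed the fibroblast markers (1.05 with feeders, 0.40 with 2i, −1.95 in NB2i against F2i). It was also lower in NB2i than in −F (−0.49, adjusted p = 5e-09), while *Fst* was higher. *Fstl3*, another activin-binding protein of the follistatin family, had 2.83, 2.76, 2.76 and 0.12 FPKM and passed in NB2i alone (−4.43 against F2i and −4.41 against −F). *Ltbp1* and *Ltbp3*, which hold latent TGFβ in the matrix, were lower in NB2i than in F2i (−3.53 and −3.22) and −F (−2.94 and −2.62), and *Ltbp3* rose by 1.00 with feeders. *Pcsk6*, a protease that processes Nodal, had means of 11.4, 15.3, 29.6 and 44.9 FPKM, rising by 1.00 with 2i on feeders (adjusted p = 3.2e-12). *Bambi*, a decoy receptor gene, rose by 0.71 with feeders and by 0.41 with 2i on feeders. It was lower in NB2i than in F2i (−0.73) and higher than in −F (0.39). The part of fibroblast RNA in its level was not tested. *Dand5*, a Nodal inhibitor gene, fell by 0.84 with feeders (adjusted p = 0.0031).

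Of 14 genes reported as Smad2/3 targets 13 were tested, of which 4 were higher and 1 lower with feeders, 5 and 3 with 2i on feeders, 3 and 4 in NB2i against F2i, and 6 and 4 in NB2i against −F. That is 5, 8, 7 and 10 of 13, beside 40.2%, 54.8%, 64.1% and 72.4% of all genes tested. *Pmepa1*, a feedback inhibitor gene, rose by 0.70 with feeders and by 0.60 with 2i. *Spsb1* had −1.82 in NB2i against F2i (adjusted p = 2.3e-12). *Otx2*, a transcription factor gene of the epiblast, took another course with means of 12.9, 5.73, 3.70 and 17.2 FPKM, lower with feeders (−1.14, adjusted p = 2.2e-10) and higher in NB2i than in F2i (2.22, adjusted p = 1.4e-15). *Gsc*, a homeobox gene of the organizer, rose by 2.21 with 2i on feeders (adjusted p = 2.9e-07), with 2.97 in NB2i against −F, and *T* (brachyury) was 1.57 higher in NB2i than in −F, both at means under 3.2 FPKM. Genes of the list passed in both directions in every comparison.

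**Figure D5:**
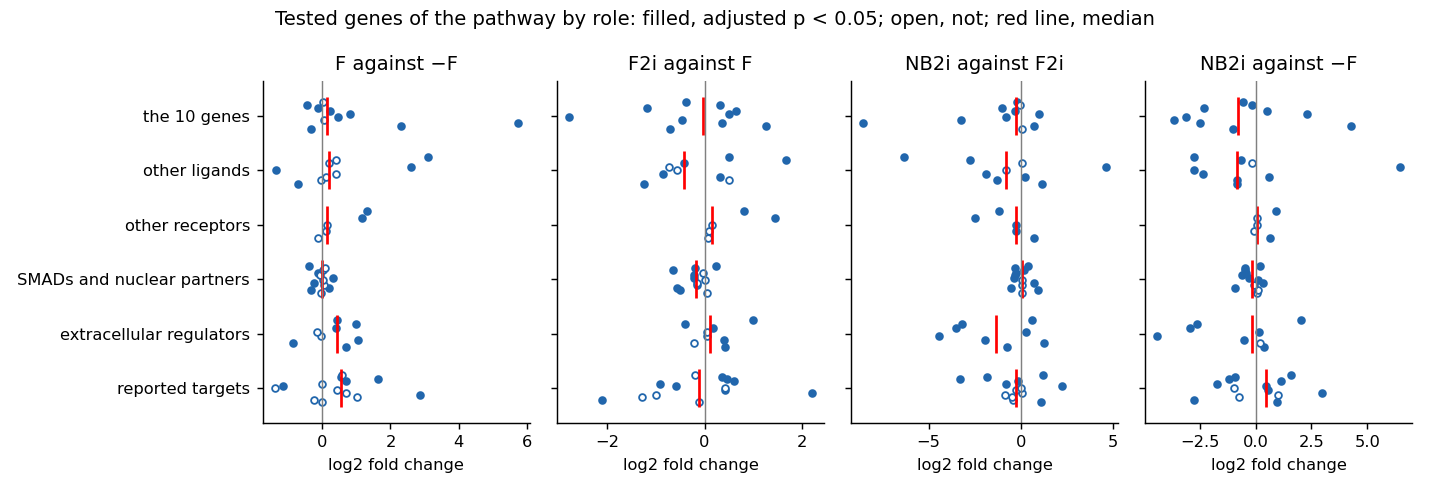
Log2 fold change of every tested gene of the pathway by role, in the 4 comparisons, with filled points for an adjusted p under 0.05 and a red line at each list's median. The horizontal scales differ between panels. None of the 12 Smads and partners reaches a 2-fold change in any panel, where 7.24% to 27.2% of all genes tested passed at 2-fold or more.

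The genes with patterns most like those of 4 members were sought among 2877 genes that varied between conditions, by Pearson's r of log2(FPKM + 1) over the 8 samples. The samples are pairs of 4 conditions, so high values are common and are given as a description. *Nodal* was most like *Ak1* (0.994), *Rex2* (0.990), *Bcorl1* (0.986), *Calcoco2* (0.985) and *Arih2* (0.985), all highest in F2i. *Lefty1* was most like *Nphs1* (0.999), *Aplp1* (0.999), *Klhl21* (0.997), *Rlim* (0.997) and *Ccdc92b* (0.997). *Lefty2*, its neighbour, was most like *Creb3l2* (0.997), *Lhpp* (0.997), *Camk1d* (0.996), *Cpe* (0.996) and *Slc12a7* (0.995). *Fst* was most like *Mras* (0.996), *Hormad2* (0.995), *Tdh* (0.995), *Lrig1* (0.994) and *Cpt1a* (0.993), of which *Tdh*, a threonine dehydrogenase gene expressed in ESCs, went from 142 FPKM in −F to 344 in NB2i. With a pseudocount of 0.1 in place of 1, 5, 4, 4 and 3 of the 5 genes were named again for *Nodal*, *Lefty1*, *Lefty2* and *Fst*.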

How the data were processed

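Poly-A RNA of 8 samples was read from 1 end over 50 bases (BGISEQ-500). The authors used Bowtie2 (mm10) and RSEM. The authors deposited an expected count per gene, RSEM's estimate of its reads (about 29.8% of values not whole), and an FPKM, that estimate scaled by transcript length and depth. Genes with no count are left out of a sample's list and were taken as 0. Library strand is not given in the sources used here.

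Samples were grouped by their titles. After rounding of expected counts, edgeR 4.0.16 in R 4.3.3 gave the tests (glmQLFit, glmQLFTest, TMM). Each SE given with an edgeR change is the absolute log2 fold change divided by the square root of its F statistic. It was not estimated on its own and can be too small for genes of few counts. All 8 samples entered 1 fit of the condition, with 4 residual degrees of freedom. A gene needed 10 counts or more in 2 samples or more to be tested, as 15287 of 20278 did, and Benjamini-Hochberg adjustment ran over these within each comparison, not across the 4 comparisons. The biological coefficient of variation was 3.25%, so moderate changes gave very small p-values that rest on the model. With 2 samples a group, the smallest p of an exact permutation test is 0.333. Replicates differed by more than sampling noise (chi-square of 1.85 to 3.63 per degree of freedom). This cannot show whether they were separate cultures, since separate libraries of 1 culture can differ so too. They were counted separately because the design text calls them biological. The p-values may thus measure the spread between libraries and not that between cultures. The scripts were tested on simulated data.

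The 10 genes, the other pathway lists (ligands, receptors, Smads and partners, extracellular regulators, targets), the marker lists and the tests were chosen with earlier results of these data known. Members are all named. From each other list, some genes aside that are not reported here, the 3 tested genes with the largest change past the test and a mean of at least 1 FPKM were named per comparison, plus *Acvr1b*, *Acvr2a*, *Smad2*, *Smad3*, *Smad4*, *Foxh1*, *Gdf3* and *Fstl1*. Alternatives were DESeq2 1.42.0, its size factors in edgeR, other count filters, the compared groups alone, the replicate number as a block, glmTreat against a log2 fold change of 1, limma 3.58.1 on log2 FPKM with a pseudocount of 1 or 0.1 (genes of at least 0.5 FPKM in 2 samples), the Lefty pair summed, and each sample left out. Coordinates and transcripts are those of the GENCODE annotation of mm10, counted from 1.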

Additional observations from a re-analysis of the deposited data

How the results depend on the processing

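Of 715 values of single genes under the alternatives, 666 kept their direction and side of the threshold, 44 kept their direction but no longer passed and 5 changed sign. The 5 were small differences that had not passed the test: *Tdgf1* in F against −F (−0.004 with limma on either FPKM scale and −0.0121 without replicate 2 of −F, up to 0.046 with other samples left out) and *Smad7* in NB2i against F2i (0.0019 without replicate 1 of F2i and 0.0114 without replicate 1 of NB2i, down to −0.0943 with others left out). The glmTreat test asks for changes beyond 2-fold and so called fewer genes by construction. It gave 2 higher and 0 lower of the 10 in F against −F (477 of all genes), 1 and 2 in F2i against F (981), 0 and 2 in NB2i against F2i (1852), and 2 and 3 in NB2i against −F (3073), and the summed Lefty pair (0.59, −0.61, 0.85 and 0.83) no longer passed. With single samples left out, the change in F2i against F lay between −2.81 and −2.77 for *Lefty1*, 0.50 and 0.51 for *Lefty2*, and −1.23 and −1.12 for *Skil*. Such fits leave 1 sample in a group, so their counts of calls are not given. On log2(FPKM + 1), a scale that understates changes of low genes, limma gave 1.20 for *Fst* and 2.67 for *Inhba* with feeders. *Inhba* was not tested where 10 counts were asked of every sample.

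Replicates carry the numbers 1 and 2 in each condition's labels. Deviations of samples with one number had correlations of −0.168 to 0.080 over 6 pairs of conditions (mean −0.038), so the numbers were not taken as pairs. A fit with a replicate block called 5 higher and 3 lower, 5 and 5, 2 and 6, and 3 and 7 of the 10 genes in the 4 comparisons, as without it. Of the 15287 genes tested it called 3215 higher and 2731 lower, 4105 and 4130, 5038 and 4643, and 5605 and 5370. Exchanging the numbers of −F, added after the data were seen, left these counts of the 10 genes as they were. Of *Inhba* in −F and NB2i, depth allows no more than the counts of 7 and 1 show.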
